A study of Bos taurus with 3 samples.

Results

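The cells described here are the 830 marrow stromal cells, of 8297 that qualified, in which the transcripts of IGFBP5, TINAGL1, UNC13D, LIPG and INHBA were most abundant. They came from a primary culture of bone marrow mesenchymal stromal cells (MSCs, plastic-adherent fibroblast-like cells). Marrow barcodes with at least 4415 unique molecular identifiers (UMIs, 1 per captured transcript) qualified when the macrophage genes TYROBP, FCER1G and AIF1 together took less than 0.02% of the UMIs. Each qualifying cell was given a score, the mean over the 5 genes of log1p(UMIs per 10000), and the top 10% by score are called the high-scoring cells. The members were chosen by the measured values of these 5 genes, and the genes themselves were picked with earlier results of the same cells in view, so their values describe the choice and test nothing. The comparison is with the other 7467 qualifying marrow cells. The same score was also taken in cultures of adipose tissue, where 609 of 6088 cells were high-scoring, and of peripheral blood, where 303 of 3033 were.

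The 3 cultures came from 1 healthy Holstein-Friesian cow in the first lactation, labelled wild type and untreated, and the labels give no age. The medium was DMEM of low glucose content supplemented with serum, L-glutamine and P/S, the culture lasted until colonies appeared, and single-cell libraries were made with 10x Genomics 3' v3.1 chemistry. Each tissue gave 1 library. There is therefore no replicate, no test and no p-value, and every interval below is a 95% interval that covers the counting of UMIs or cells only.

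The 5 genes encode proteins of unlike function. IGFBP5 is a secreted binder of insulin-like growth factors, and TINAGL1 is a secreted glycoprotein of basement membranes. UNC13D, also called Munc13-4, primes granules for release in cytotoxic lymphocytes, and LIPG (endothelial lipase) cleaves phospholipids of lipoproteins. INHBA is the subunit that pairs with itself to form activin A, a ligand of the TGF-beta family that follistatin binds and blocks. In marrow, stromal cells make the matrix and many of the growth factors and chemokines that act on blood cells and bone cells.

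In the whole series 18561 barcodes passed the UMI minimum of their library, and 984 of the 9281 marrow barcodes were set aside by the macrophage limit. The median was 9253 UMIs per high-scoring cell and 9103 per other marrow cell, and Pearson's r between score and log10 UMIs was 0.101 over the 8297 cells. After every cell was thinned to 4000 UMIs, the median was 1738 genes in high-scoring cells and 1691 in the others. Cells of the top 5% by UMIs, where doublets would gather, were 4.70% of the high-scoring cells and 5.05% of the others. The summed G2/M genes took 0.451% of UMIs in high-scoring cells and 0.423% in the others, and the S-phase genes 0.178% and 0.169%. Among high-scoring cells 1 barcode was also a cell of the adipose library and 1 of the blood library, and among the other marrow cells 7 and 9 were.

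The stromal label held in both groups of marrow cells. The 16 stromal markers summed to 22304 CPM (counts per 1000000 UMIs summed over the group) in high-scoring cells and 23989 CPM in the others, and none was at 0 in either. Of the 14 with at least 50 CPM on 1 side, 9 had a ratio above 1, with a median log2 ratio of 0.09. By a limit of 1.5-fold 0 were higher and 2 were lower, COL1A1 and COL3A1. VIM, the intermediate filament of mesenchymal cells, had 12087 CPM in high-scoring cells and 11714 in the others, and FN1 (fibronectin) had 833 and 752 CPM. Markers of leukocytes, endothelium and epithelium were low in both. The 17 macrophage markers summed to 22.7 CPM in high-scoring cells and 19.5 in the others, with 2 of the 17 at 0 in high-scoring cells, CD14 at 3.29 and 3.24 CPM, and PTPRC, the leukocyte surface antigen, at 0.113 and 0.140 CPM. The 16 endothelial markers summed to 3.40 and 2.63 CPM, with 6 of them at 0 in high-scoring cells. The 13 lymphocyte markers summed to 1.81 CPM in high-scoring cells and 1.40 in the others, with 8 at 0 in high-scoring cells, and 10 neutrophil markers to 33.8 and 42.4 CPM, with 4 at 0. The 12 pericyte markers summed to 97.7 CPM in high-scoring cells and 69.2 in the others, with 6 at 0 in high-scoring cells and most of the sum from CSPG4 at 75.1 and 59.5 CPM. The 9 epithelial markers had no UMI in high-scoring cells, which allows up to 0.340 CPM, and 0.140 CPM in the others. The 7 erythroid and megakaryocyte markers summed to 1.36 CPM in high-scoring cells and 0.736 in the others. The 9 Schwann and neural markers summed to 973 CPM in high-scoring cells and 620 in the others (1.57-fold, 1.53 to 1.61), of which NES, a filament gene also made by stromal cells, gave 936 and 585 CPM. Of that list SOX10, GFAP and MBP were among those at 0 in high-scoring cells, and S100B had 24.3 CPM in high-scoring cells and 17.1 in the others.

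The score ran on without a gap at the limit. The lowest high-scoring cell scored 0.5228 and the highest cell below it 0.5227, and both had nearly the same depth, 7935 and 7939 UMIs. Of all qualifying marrow cells 2192 (26.4%) had no UMI of any of the 5 genes. The median score was 0.675 in high-scoring cells and 0.169 in the others. Most high-scoring cells held a UMI of 2 or 3 of the genes, 284 and 336 cells, while 142 held 4 and 47 held all 5. Another 21 held only 1. In the 100 cells just inside the limit INHBA had 420 CPM and IGFBP5 46.5 CPM, against 379 and 46.3 CPM in the 100 cells just outside it.

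As the score requires, all 5 genes were higher in the high-scoring cells. IGFBP5 had 144 CPM there and 12.7 CPM in the other marrow cells, an 11.3-fold ratio (10.4 to 12.3) and the widest of the 5. INHBA had 566 CPM in high-scoring cells and 112 CPM in the others. UNC13D had 100.3 and 17.7 CPM, LIPG 71.8 and 17.9 CPM, and TINAGL1 65.3 and 12.2 CPM, in high-scoring and other cells. With every cell thinned to 4000 UMIs, INHBA was seen in 81.0% of high-scoring cells and 30.9% of the others, and IGFBP5 in 32.3% and 4.25%. At full depth the shares were 96.1% and 52.5% for INHBA and 50.1% and 9.15% for IGFBP5. Macrophage-rich marrow barcodes, 518 with at least 0.2% of UMIs in the 3 macrophage genes and a median of 5990.5 UMIs, gave the level in cells of another kind at the same 4000 UMIs. They showed IGFBP5 in 0.193% and INHBA in 2.90%, and LIPG in 0 of 518, where a floor of 3 cells allows up to 0.579%; at full depth LIPG had 1.37 CPM in these barcodes. TINAGL1 was different, with a UMI in 23.1% of high-scoring cells, 4.14% of the others and 22.8% of macrophage-rich barcodes, where its level was 78.0 CPM, above the 27.7 CPM of the free RNA in near-empty barcodes. UNC13D was seen in 31.1% of high-scoring cells, 6.28% of the others and 5.02% of macrophage-rich barcodes, and LIPG in 21.9% and 6.36% of the 2 groups of stromal cells.

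**Figure D1:**
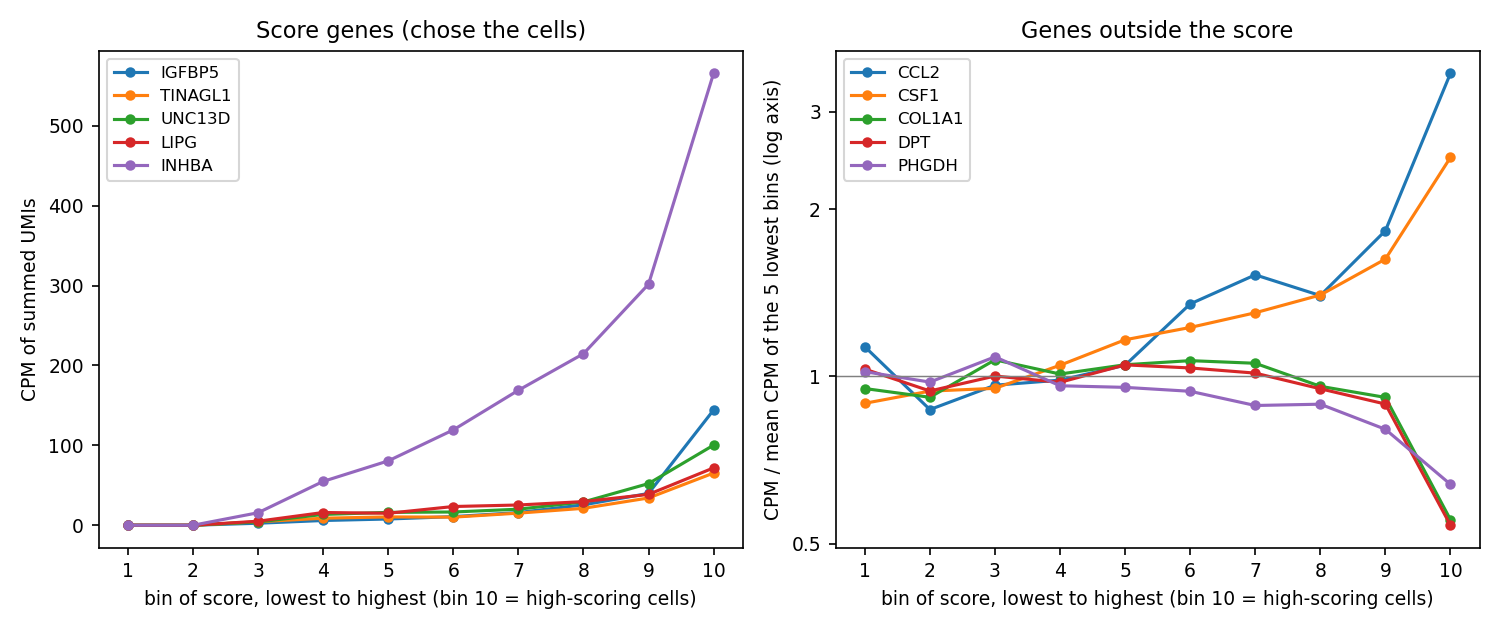
Summed expression in 10 bins of marrow cells ordered by score, lowest to highest, with about 830 cells per bin; bin 10 holds the high-scoring cells. Left, CPM of the 5 score genes, with IGFBP5 at 39.8 CPM in bin 9 and 144 CPM in bin 10. Right, 5 other genes as CPM divided by their mean CPM in the 5 lowest bins (log axis), with COL1A1 and DPT nearly level up to bin 9 and low in bin 10.

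The score genes were only loosely tied to each other from cell to cell. Over the 8297 cells, which share 1 library, Pearson's r between pairs of the 5 genes (log scale) ran between 0.0267 for UNC13D with LIPG and 0.159 for IGFBP5 with INHBA. To read each gene without its own weight in the score, cells were chosen again as the top 10% by the other 4 genes. IGFBP5 then had 78.3 CPM in the chosen cells and 20.2 CPM in the rest, a ratio of 3.88 (3.55 to 4.25). UNC13D had 63.0 and 21.9 CPM (2.88, 2.61 to 3.17), and TINAGL1 39.6 and 15.1 CPM (2.63, 2.33 to 2.96). INHBA had 321 CPM in the chosen cells and 139 CPM in the rest (2.30, 2.21 to 2.40), and LIPG 43.0 and 21.1 CPM (2.04, 1.82 to 2.28). All 5 intervals lay above 1. As the 5 genes had been picked together from these marrow cells, these ratios describe the choice of genes and are no independent sign that the genes go together.

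The same reading was made in the other cultures. In adipose cells chosen by the other 4 genes IGFBP5 was 2.42-fold higher (2.21 to 2.63), INHBA 1.77-fold and UNC13D 1.63-fold. TINAGL1 there had 113 CPM in the chosen cells and 106 CPM in the rest (1.06, 0.997 to 1.14), and LIPG 45.3 and 44.9 CPM (1.01, 0.909 to 1.12). In blood cells UNC13D was 3.36-fold higher in the chosen cells (2.94 to 3.84), IGFBP5 1.85-fold and INHBA 1.60-fold. TINAGL1 went the other way in blood, at 60.8 CPM in the chosen cells and 86.8 CPM in the rest (0.701, 0.637 to 0.769), and LIPG had 51.0 and 47.9 CPM (1.07, 0.959 to 1.18). The genes had been picked on the marrow cells and not on these, so the larger marrow ratios are fixed in part by that choice, and the difference between libraries has no test.

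**Figure D2:**
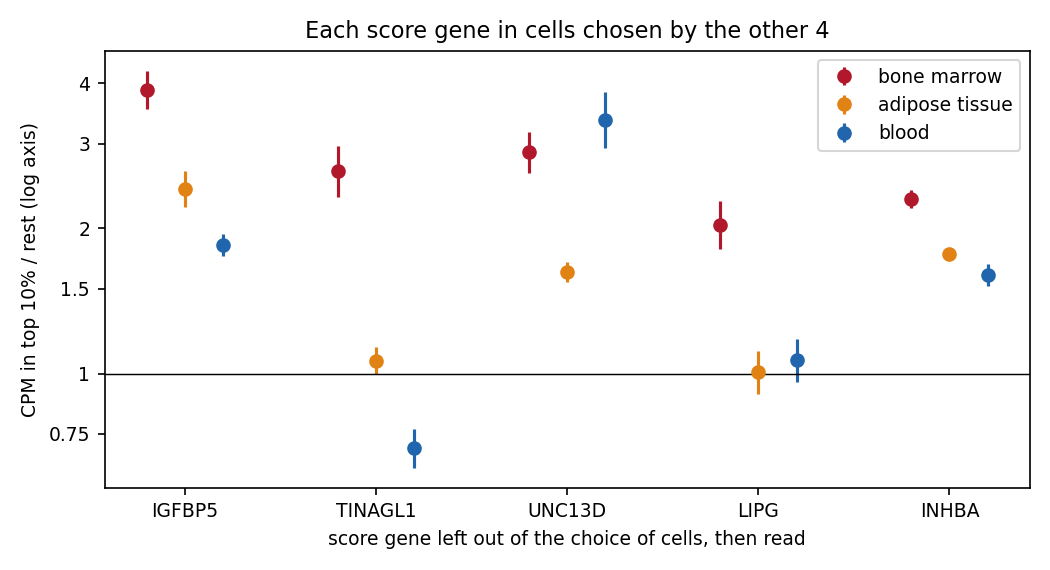
Ratio of CPM (log axis) for each score gene between the top 10% of cells chosen by the other 4 genes and the rest of the cells of the library; bars are 95% counting intervals. All 5 points of bone marrow lie above 1, while TINAGL1 and LIPG lie near or below 1 in adipose tissue and blood.

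Outside the score, few genes stood apart. A gene was called higher or lower if its CPM differed by 1.5-fold or more, among the 3005 genes with 50 CPM or more on at least 1 side. Higher in high-scoring cells were 36 of these genes (1.20%), 5 of them the score genes, and lower were 18 (0.599%). The median log2 ratio of all 3005 genes was 0.04, and with ratios taken relative to this median 30 genes were higher and 24 lower. The counts depend on how the cells were chosen: with scores taken from cells thinned to 4000 UMIs, 21 genes were higher and 6 lower.

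Genes for signals to macrophages and other blood cells were among those highest in the high-scoring cells. CCL2, a chemokine that draws monocytes, had 195 CPM in high-scoring cells and 69.4 CPM in the other marrow cells (2.82-fold, 2.67 to 2.97). CSF1, the growth factor of macrophages, had 1026 and 491 CPM (2.09-fold, 2.04 to 2.14), and 89.0% of high-scoring cells against 70.4% of the others held a UMI of it at 4000 UMIs. CCL2 was also abundant outside the stromal cells, at 3332 CPM in the macrophage-rich barcodes and 894 CPM in the free RNA of near-empty barcodes, and its part in the result was not tested. Without the macrophage limit the CCL2 ratio was 0.916. CSF1 had 58.5 CPM in macrophage-rich barcodes and 476 CPM in free RNA, both below its level in the other marrow cells. Of 20 chemokine and cytokine genes, 5 reached 50 CPM. CCL2 and CSF1 were higher by the rule, and CXCL5 (781 and 545 CPM), CXCL12 (102 and 79.0 CPM) and IL6 (342 and 304 CPM) were below 1.5-fold. CXCL5, like CCL2, was high in macrophage-rich barcodes, at 2481 CPM. The median log2 ratio of the 5 was 0.52.

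Genes that act on the matrix around the cell and on attachment to it made up a further group. PLAU, which encodes the protease urokinase, had 125 CPM in high-scoring cells and 75.1 CPM in the others (1.67-fold, 1.56 to 1.78). Its receptor gene PLAUR had 561 and 452 CPM, short of 1.5-fold. ITGA5, the alpha subunit of a fibronectin receptor, had 524 CPM in high-scoring cells and 327 CPM in the others (1.60-fold). CRISPLD2, a secreted cysteine-rich protein, had 164 and 89.0 CPM (1.85-fold). PLAU was also read at 205 CPM in macrophage-rich barcodes, above both groups.

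Of 30 basement membrane genes, 5 reached 50 CPM and 3 of these were higher: TINAGL1 itself, SMOC1 and LAMC1. SMOC1, a calcium-binding protein of basement membranes, had 122 CPM in high-scoring cells and 65.2 CPM in the others (1.86-fold). LAMC1, the gamma chain shared by most laminins, had 168 and 110 CPM (1.52-fold). LAMB1 had 108 and 75.9 CPM (1.42-fold), and SPARC, a collagen-binding protein, 1980 and 1802 CPM (1.10-fold). Below 50 CPM, LAMA4 had 35.3 CPM in high-scoring cells and 20.03 CPM in the others.

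Genes of the cell skeleton and of signalling were also among the higher ones. TAGLN, an actin-binding protein of smooth muscle, had 51.3 CPM in high-scoring cells and 26.7 CPM in the others (1.92-fold), the only 1 of 12 contractile genes measured to pass, and ACTA2 had 199 and 136 CPM. NES (nestin, an intermediate filament) had 936 and 585 CPM (1.60-fold). MARCKSL1 and COTL1, which bind actin, were 1.71-fold and 1.57-fold higher. S100A2, a calcium-binding protein, had 361 CPM in high-scoring cells and 163 CPM in the others (2.21-fold, 2.13 to 2.30). GEM, a small GTPase, and DUSP1, a phosphatase that switches off MAP kinases, were 1.55-fold and 1.54-fold higher. COTL1 and DUSP1 were also high in macrophage-rich barcodes, at 563 and 150.5 CPM.

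The cholesterol pathway differed by small amounts, all in 1 direction. All 9 of its genes that reached 50 CPM had a ratio above 1, with a median log2 ratio of 0.41, though most stayed below 1.5-fold. HMGCS1, an early enzyme of the pathway, had 320 CPM in high-scoring cells and 181 CPM in the others (1.77-fold). The enzyme gene SQLE had 101 and 71.6 CPM. The glutathione enzyme gene GCLC had 78.5 CPM in high-scoring cells and 39.8 CPM in the others (1.97-fold, 1.81 to 2.14), although only 1 of the 7 oxidative stress genes measured passed and their median log2 ratio was −0.12.

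The partners of the score genes mostly did not share their pattern. Of 6 genes of the insulin-like growth factor axis at 50 CPM or more, IGFBP5 alone was higher. IGFBP6 had 234 CPM in high-scoring cells and 200 CPM in the others, and IGFBP4 had 73.5 and 91.9 CPM. Among binding proteins below 50 CPM, IGFBP7 had 19.4 and 5.18 CPM (3.75-fold, 3.11 to 4.49), IGFBP2 20.3 and 9.25 CPM (2.19-fold), and IGFBP3 44.6 and 60.6 CPM. HTRA1, a secreted protease that cleaves some of these proteins, had 301 CPM in high-scoring cells and 273 CPM in the others.

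Beside INHBA, the activin and TGF-beta ligand TGFB1 had 82.9 CPM in high-scoring cells and 96.9 CPM in the others. None of the 5 inhibitors of this family that were measured passed. FST (follistatin), below 50 CPM, had 14.4 and 20.9 CPM, and its relative FSTL3 had 99.02 and 98.2 CPM. The 10 receptors summed to 118 CPM in high-scoring cells and 114 CPM in the others, and no receptor reached 50 CPM. Among 7 target genes measured, 1 was higher and COL1A1 was lower. A ratio above 1 was found for 5 of the 7, and the median log2 ratio was 0.10. The feedback genes SMAD7 (79.4 and 67.1 CPM) and PMEPA1 (226 and 212 CPM) stayed below 1.5-fold. Among granule release genes UNC13D alone of 6 passed, with RAB11A at 95.4 and 87.5 CPM and VAMP8 at 120 and 112 CPM. LIPG alone of 3 lipase and lipoprotein genes measured passed.

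**Figure D3:**
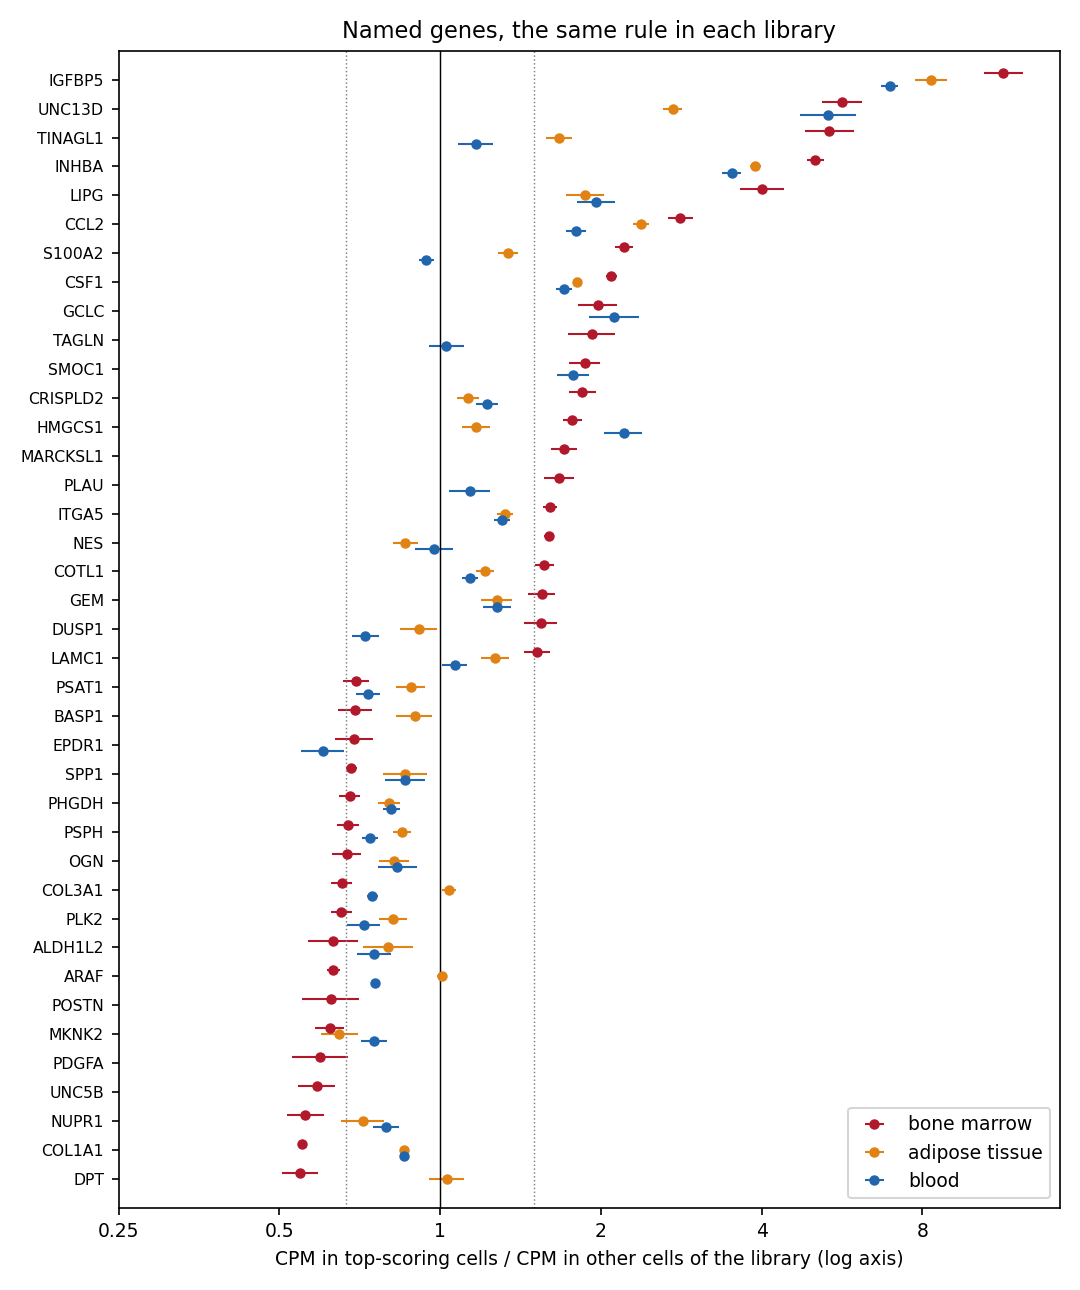
Ratio of CPM in high-scoring cells over the other cells (log axis) for the score genes and other named genes, with the same rule applied in bone marrow, adipose tissue and blood. Bars are 95% counting intervals, dotted lines mark 1.5-fold, and points are shown where either group had at least 50 CPM. CCL2 and CSF1 lie above 1.5 in all 3 libraries, while S100A2, NES and DUSP1 lie above it in marrow alone.

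A few single matrix genes were lower in high-scoring cells, while most of the collagen genes measured were not. COL1A1, a chain of type I collagen, had 2292 CPM in high-scoring cells and 4166 CPM in the others (0.550, 0.542 to 0.558), whereas its partner chain COL1A2 had 2402 and 2876 CPM and did not pass. COL3A1 (type III collagen) had 239.7 and 367 CPM (0.654). DPT, dermatopontin, which takes part in collagen fibre assembly, had 80.2 CPM in high-scoring cells and 147 CPM in the others (0.547). OGN, a small leucine-rich proteoglycan, had 116 and 173 CPM, just short of the rule at 0.668. Of 11 collagen genes measured COL1A1 and COL3A1 were the 2 lower ones, and 7 had a ratio above 1, such as COL6A1 at 281 and 208 CPM, with a median log2 ratio of 0.18. Of 6 small leucine-rich proteoglycans measured 0 passed, though only 1 had a ratio above 1 and the median log2 ratio was −0.34. POSTN (periostin) had 32.3 CPM in high-scoring cells and 51.8 CPM in the others. SPP1, osteopontin, had 778 and 1142 CPM, with 2377 CPM in free RNA.

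Other genes lower by the rule were UNC5B, a netrin receptor (73.6 and 125 CPM), the growth factor PDGFA (32.8 and 55.0 CPM) and the kinase genes MKNK2 (121 and 196 CPM), ARAF (665 and 1054 CPM) and PLK2 (233 and 357 CPM). NUPR1, a stress-induced chromatin protein, had 72.5 CPM in high-scoring cells and 130 CPM in the others. It was also read at 395 CPM in macrophage-rich barcodes and 213 CPM in free RNA, above both groups, and their part in its result was not tested. Of 10 genes of the integrated stress response that reached 50 CPM, 9 had a ratio below 1, and the median log2 ratio was −0.51, but ALDH1L2 (40.04 and 63.4 CPM) alone passed. Those just short of the rule included the serine synthesis genes PHGDH (221 and 327 CPM), PSPH (221 and 328 CPM) and PSAT1 (148 and 213 CPM). ATF4, the factor that drives this response, had 324 and 455 CPM. In adipose tissue and blood the same rule gave medians of −0.32 over 9 such genes and −0.33 over 11, with 0 and 1 lower by 1.5-fold.

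Low COL1A1 levels were unevenly spread over the high-scoring cells. Over the score bins COL1A1 stayed between 3806 and 4447 CPM in bins 1 to 9 and was 2292 CPM in the top bin, so the difference did not build up along the score as it did for CSF1, which had 370 CPM in bin 1 and 673 CPM in bin 9. Counted per cell, 273 of 830 high-scoring cells (32.9%, 29.7 to 36.2) had under 3 COL1A1 UMIs per 10000, against 205 of 7467 other marrow cells (2.75%, 2.39 to 3.14). This limit was set after the values were seen, and 43 high-scoring cells lay just under it (2 to 3 UMIs per 10000) and 50 just over it (3 to 5). No COL1A1 UMI at all was found in 140 high-scoring cells (16.9%) and 68 others (0.911%), although the free RNA of the library held COL1A1 at 3031 CPM. Of the 478 COL1A1-low marrow cells 57.1% were high-scoring. The share was 5.91% in score bin 9 and between 1.08% and 2.05% in bins 1 to 6.

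The COL1A1-low cells were not shallow, with a median of 8781 UMIs against 9687 in the remaining high-scoring cells. They were seen at every number of score genes, in 86 of 284 cells with 2 of the genes and 18 of 47 with all 5. They made up 37.4% of high-scoring cells with UNC13D and 27.6% of those without it, and 28.3% of those with LIPG and 36.6% of those without. In the other cultures COL1A1-low cells were rare among high-scoring and other cells alike. They were 8 of 609 high-scoring cells (1.31%, 0.569 to 2.57) and 95 of 5479 others (1.73%, 1.41 to 2.12) in adipose tissue. In blood they were 3 of 303 high-scoring cells (0.990%, 0.205 to 2.87) and 6 of 2730 others (0.220%, 0.0807 to 0.478).

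Within the high-scoring cells, the COL1A1-low ones also had low levels of several other matrix and bone-linked transcripts. Of 3107 genes measured, 15 were higher in the COL1A1-low cells (0.483%) and 52 lower (1.67%), with a median log2 ratio of 0.05. UNC5B had 14.0 CPM in COL1A1-low and 97.2 CPM in the remaining high-scoring cells (0.144, 0.100 to 0.203). COL3A1 had 57.3 and 312 CPM, DPT 21.6 and 103 CPM, and OGN 31.6 and 149 CPM. OMD, osteomodulin, a proteoglycan of bone matrix, had 24.0 and 82.3 CPM, and ENPP1, which makes the mineralization inhibitor pyrophosphate, 33.6 and 111 CPM. COL1A2 was lower too, at 1257 CPM in COL1A1-low and 2855 CPM in the remaining high-scoring cells. Of 7 osteogenic genes measured 4 were lower (median log2 ratio −1.03), of 6 small leucine-rich proteoglycans 4 (−0.97) and of 11 collagens 4 (−0.33). Of 14 stromal markers measured 5 were lower and 0 higher (−0.37). The stromal markers summed to 18145 CPM in COL1A1-low and 23947 CPM in the remaining cells, and the macrophage markers to 26.0 and 21.4 CPM. COL1A1 itself is in the collagen list, in the stromal marker list and its sum, and among the 52 lower genes. Its low level there follows from the choice of the cells.

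Other genes were higher in the COL1A1-low cells. The median score was also higher there, at 0.775 against 0.640 in the remaining high-scoring cells, and its part in these differences was not tested. CCL2 had 304 CPM in COL1A1-low and 153 CPM in the remaining high-scoring cells (1.99-fold), S100A2 559 and 282 CPM (1.98-fold), and CSF1 1361 and 893 CPM (1.52-fold). CA2, a carbonic anhydrase, had 131 and 56.0 CPM (2.34-fold), and the metallothionein gene MT2A 996 and 581 CPM (1.71-fold). Of the score genes UNC13D (139 and 85.1 CPM) and TINAGL1 (88.1 and 56.3 CPM) were more than 1.5-fold higher in the COL1A1-low ones. CA2 was chosen after its values were seen. The COL1A1-low cells that were not high-scoring had the same direction for these genes, with CCL2 at 215 CPM against 66.0 CPM in all remaining marrow cells, MT2A at 1110 and 508 CPM, and UNC5B at 24.6 and 128 CPM. Their median score was higher too, at 0.293 against 0.168 in those remaining cells.

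Leaving the COL1A1-low cells out of both groups, 29 of 3001 genes were higher and 3 lower in the high-scoring cells. Of the 31 higher genes outside the score 21 remained, and of the 18 lower genes 3, among them NUPR1 at 0.657. The ratio of CCL2 was then 2.31, of CSF1 1.84 and of HMGCS1 1.79. UNC5B was at 0.760, COL3A1 at 0.834 and OGN at 0.847. COL1A1 was at 0.742, a shift that follows from leaving out cells by their COL1A1 level, and as the limit was set on these values the counts are a description and support nothing further.

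**Figure D4:**
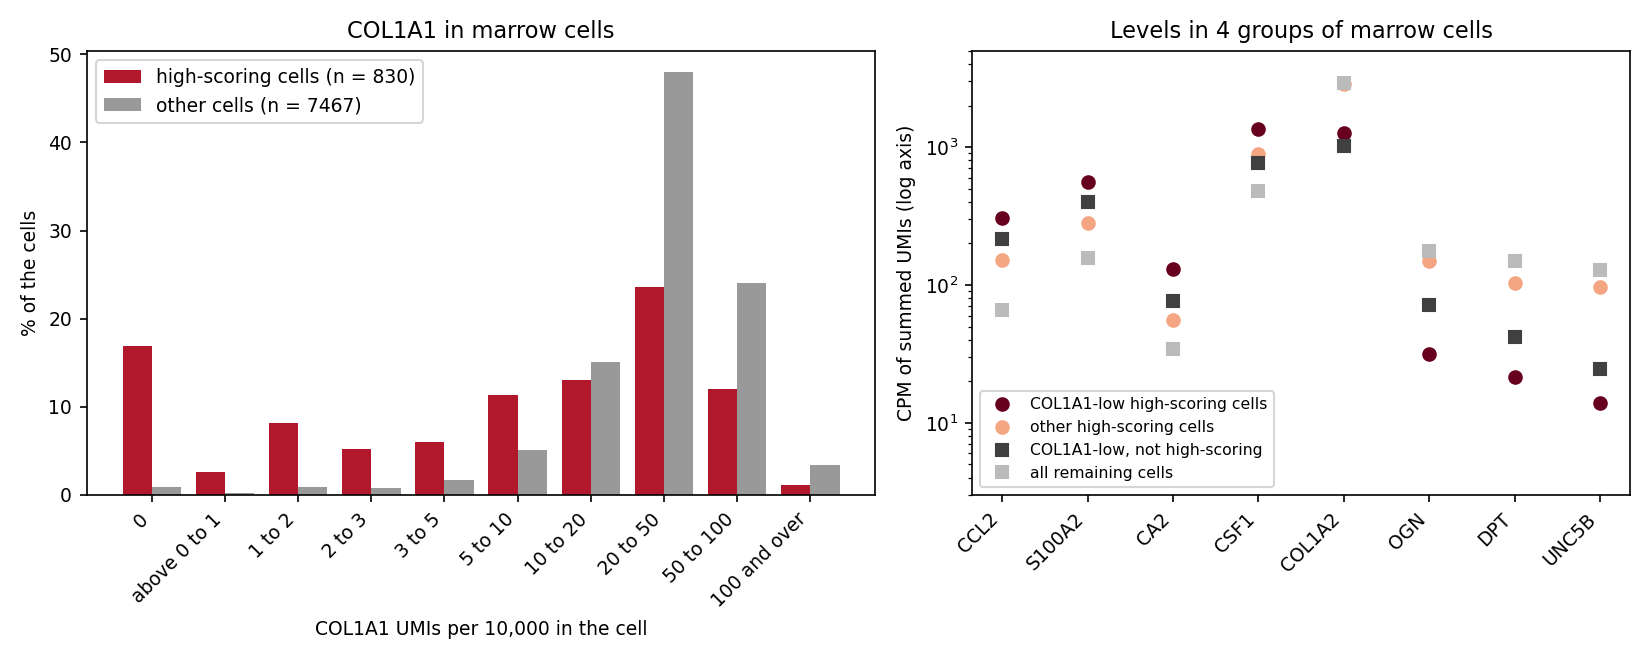
Left, share of marrow cells (%) in each class of COL1A1 UMIs per 10000, in 830 high-scoring cells and 7467 other cells, with 16.9% of high-scoring and 0.911% of other cells at 0. Right, CPM (log axis) of 8 genes in 4 groups of marrow cells, with COL1A1-low meaning under 3 COL1A1 UMIs per 10000. CCL2 and S100A2 are highest, and OGN, DPT and UNC5B lowest, in the COL1A1-low high-scoring cells.

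The named genes did not follow all 5 score genes alike. Cells were split by whether a single score gene had a UMI at 4000 UMIs, which held for 2979 cells with INHBA, 727 with UNC13D, 657 with LIPG, 585 with IGFBP5 and 501 with TINAGL1. CSF1 was 1.62-fold higher in cells with IGFBP5 than in those without, 1.47-fold with INHBA and 1.45-fold with UNC13D, but 1.04-fold with LIPG. CCL2 was 1.80-fold higher with UNC13D, 1.78-fold with TINAGL1 and 1.74-fold with INHBA, and 1.05-fold with LIPG. S100A2 was 0.973 with LIPG and at least 1.42 with each of the others. LIPG instead went with CRISPLD2 (1.58-fold) and TAGLN (1.73-fold). UNC5B was 0.593 in cells with LIPG, and COL1A1 lowest in cells with UNC13D, at 0.765. FST, which encodes follistatin, was 2.72-fold higher with LIPG and 2.17-fold with TINAGL1, but 0.561 with INHBA.

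Across single cells the genes most like each score gene were these, as a description over 8297 cells of 1 library. The gene most like INHBA was CSF1 (Pearson's r 0.291, log scale), as it was for UNC13D (0.154), and the one most like IGFBP5 was INHBA (0.159). Among the genes most like LIPG were MT2A (0.207), MAN1A1 (0.197) and ACTN1 (0.186), and among those most like TINAGL1 were S100A2 (0.149) and INHBA (0.126). After CSF1, INHBA was closest to CCDC80 (0.262) and PLAUR (0.230). All of these values are weak. Counts per cell are sparse, and whether this keeps the values low was not tested.

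**Figure D5:**
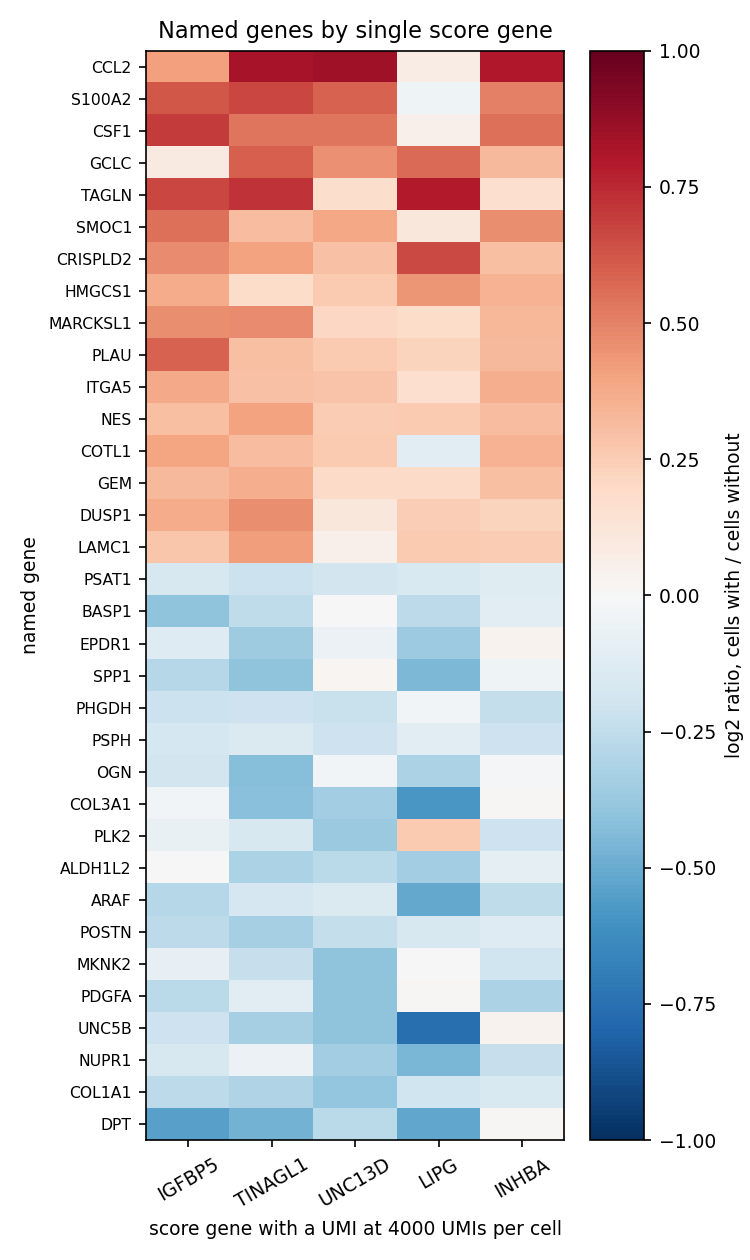
Log2 ratio (color) of CPM in marrow cells with a UMI of 1 score gene (columns, at 4000 UMIs per cell) over cells without it, for the named genes outside the score (rows). In the LIPG column CCL2, CSF1 and S100A2 are near 0, while CRISPLD2 and TAGLN are clearly positive.

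The high-scoring cells were compared with 2 other marrow states defined by scores of their own, each the top 10% of the qualifying cells. The share of the first state was near 10% in both groups. The share of the second was lower in the high-scoring cells. Cells in the top 10% by EDNRA, OMD, BMP2, DKK1 and ENPP1 were 8.55% of the high-scoring cells (6.74 to 10.7) and 10.2% of the others (9.49 to 10.9). Cells in the top 10% by SERPINF1, CLU, IFIT1, SORBS2 and ALDH1L2 were 4.46% of the high-scoring cells (3.16 to 6.09) and 10.6% of the others (9.93 to 11.3). SERPINF1, a secreted protein that blocks vessel growth, had 12.7 CPM in high-scoring cells and 32.4 CPM in the others, and SORBS2 17.6 and 42.8 CPM. CLU, a secreted chaperone of the same score, was not lower, at 28.7 and 19.6 CPM.

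With the same rule in the other libraries, 20 of 3057 genes were higher (0.654%) and 5 lower (0.164%) in high-scoring adipose cells, and 34 of 2996 higher (1.13%) and 27 lower (0.901%) in high-scoring blood cells. Of the 31 genes higher in marrow outside the score, 16 were measured in adipose tissue and 2 were higher there by the rule, with 13 of 16 above 1. In blood 20 were measured, 6 were higher and 15 were above 1. The median log2 ratio of all measured genes was 0.02 in adipose tissue and 0.04 in blood, so ratios above 1 were the more common ones in general. Of the 18 genes lower in marrow, 1 of 9 measured was lower in adipose tissue and 0 of 11 in blood, with 6 and 11 below 1. CCL2 had 426 CPM in high-scoring and 179 CPM in other adipose cells (2.37-fold), and 286 and 159 CPM in blood (1.80-fold). CSF1 had 2519 and 1395 CPM in adipose tissue (1.81-fold) and 505 and 296 CPM in blood (1.71-fold). Besides the score genes IGFBP5, UNC13D, LIPG and INHBA, CCL2 and CSF1 were the only genes higher by the rule in all 3 libraries. SMOC1, HMGCS1 and GCLC were higher in blood as well, at 1.78-fold, 2.20-fold and 2.11-fold. COL1A1 had 1842 CPM in high-scoring and 2155 CPM in other adipose cells, and 5174 and 6061 CPM in blood, a ratio of 0.855 and 0.854.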

How the data were processed

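The values are counts: whole numbers of UMIs per gene and barcode, deposited by the authors as unfiltered matrices of 21861 genes, made with Cell Ranger on the genome build ARS-UCD1.2. The submitters' processing notes name that build and Cell Ranger 6.1.1, whereas version 4 stands in the files, per the file headers, and which holds is not settled. Of the genes, 4579 carried an identifier alone. No sequence is shown. Cells in adipose tissue and blood had to reach the 99th percentile divided by 10, taken over the top 3000 barcodes, and the marrow minimum was 4415 UMIs. No doublet caller was run and doublets were not removed. UMIs were summed over the cells of a group and scaled to CPM, and ratios carry exact 95% intervals. Barcodes of 10 to 100 UMIs gave the free RNA. List medians are over members of at least 50 CPM. On simulated counts for 21861 genes, 100 of 100 genes raised 2-fold, 100 of 100 lowered 2-fold and 0 unchanged genes were counted, and at 1.25-fold 0 were. The simulated folds lie on either side of the 1.5-fold limit, so this checks the working of the rule only. Python 3.11.15, numpy 2.4.6, scipy 1.17.1, pandas 2.3.3 and matplotlib 3.10.9 were used.

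The cells, the 52 gene lists and the comparisons were chosen with earlier results of these data known. Named genes are the score genes, the 15 largest ratios in each direction with a symbol and at least 100 CPM (mitochondrial and ribosomal protein genes left out), list members past the rule, the measured partners of the score genes, and the 5 genes most correlated with each score gene. Other list members named to describe a list were chosen after their values were seen. Alternatives changed the choice of cells, the depth, the filters and the fold (2 or 1.25). Some named genes are not reported here.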

Additional observations from a re-analysis of the deposited data

Results flagged for a closer look

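Several genes had opposite differences between high-scoring and other cells in marrow and in another library, with intervals on opposite sides of 1. With 1 library per tissue these differences between libraries were not tested. S100A2 was 2.21-fold higher in marrow and 0.941 in blood, with 1.34 in adipose tissue. ENSBTAG00000020097, which the files give without a symbol, was 2.10-fold higher in marrow and 0.734 in blood. In adipose tissue, where it was below 50 CPM in both groups, it was at 0.864. MGST1, a glutathione transferase, was 1.81-fold higher in marrow and 0.858 in adipose tissue, but 1.63-fold higher in blood. NES was 1.60-fold higher in marrow and 0.861 in adipose tissue, with 0.973 (0.897 to 1.05) in blood. DUSP1 was 1.54-fold higher in marrow, against 0.913 in adipose tissue and 0.725 in blood. COL3A1 was 0.654 in marrow and 1.04 in adipose tissue, with 0.747 in blood. TINAGL1, read in cells chosen by the other 4 score genes, was 2.63-fold higher in marrow and 0.701 in blood, with 1.06 in adipose tissue. The 5 genes had been picked on the marrow cells, which favours the marrow value of this last comparison.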

How the results depend on the processing

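The main counts were 36 genes higher and 18 lower in high-scoring cells. With the top 5% of cells they were 59 and 47, with the top 20% 18 and 2, with scores from thinned cells 21 and 6, at 100 CPM 21 and 9, with a fold of 2 10 and 1, with the smaller alternative fold 135 and 69, and with no CPM minimum 968 and 1025. Against the lowest-scoring cells, up to the median score, 55 were higher. Without the macrophage limit 53 were lower and the CCL2 ratio was 0.916, without LIPG in the score 10 were lower, and without COL1A1-low cells, an alternative added after the data were seen, 3 were lower. The rule in adipose tissue gave 20 and 5. There NES was at 0.861, DUSP1 0.913 and COL3A1 1.04, with intervals that left out 1. The intervals of DPT, at 1.03 (0.953 to 1.11), and ARAF, at 1.01 (0.987 to 1.03), included 1. Below 50 CPM in both groups were SMOC1 at 0.880 (0.368 to 1.81), UNC5B at 1.15 (0.812 to 1.58) and TAGLN at 0.716 (0.623 to 0.820). In blood S100A2 was at 0.941, NES 0.973 (0.897 to 1.05) and DUSP1 0.725. DPT was at 1.59 in blood, but at 16.1 CPM in high-scoring cells and 10.1 CPM in the others. The causes of these shifts were not tested. Over the planned marrow alternatives 420 gene ratios stayed within their counting interval, 276 moved without changing direction, and 1, that of CCL2, changed direction. The counts of higher and lower genes are not part of this tally. No paired analysis was possible because each tissue gave 1 library and the comparison is within a library. The precision is limited by 8816244 UMIs in the high-scoring cells.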
